A study of Mus musculus with 6 samples.

Results

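The genes described here encode the enzymes that assemble triglyceride from glycerol 3-phosphate and fatty acyl-CoA in brown adipose tissue. They were taken by name: the glycerol-3-phosphate acyltransferases Gpam, Gpat3 and Gpat4, the acylglycerol phosphate acyltransferases Agpat2 and Agpat3, the lipins Lpin1, Lpin2 and Lpin3, the diacylglycerol acyltransferases Dgat1 and Dgat2, and the patatin-like protein Pnpla3. All 11 were found among the 45320 Ensembl gene identifiers of each table. Total RNA of whole brown adipose tissue was sequenced from C57BL/6 mice that started a calorie-rich diet, high in sugar and fat, at 4 weeks of age and were divided into 2 groups after 4 weeks on it. For one group the food then also contained RO5508887, which inhibits the protease Bace1 (samples 17, 33 and 35, called treated). The other stayed on the diet alone (samples 13, 14 and 15, called untreated), so all animals carried the diet and no lean group was compared. Dose, length of treatment and sex are not given in the sources used here, nor whether each sample was 1 animal. Samples 33 and 35 came with the same value for each of the 45320 identifiers, so they were counted as 1 library, treated 33/35, which leaves 2 treated and 3 untreated libraries.

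Triglyceride is built on the endoplasmic reticulum in a fixed order. A first acyl chain is placed on glycerol 3-phosphate by a GPAT enzyme, and a second on the resulting lysophosphatidate by an AGPAT enzyme. A lipin removes the phosphate from phosphatidate to give diacylglycerol, and a DGAT enzyme adds the last acyl chain. The stored triglyceride of brown adipocytes supplies fatty acids that fuel heat production by Ucp1. Each step is served by several enzymes that differ in location and tissue. PNPLA3 acts later, as a lipid droplet protein that moves or removes acyl chains.

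The values are FPKM, fragments scaled to transcript length and to library depth, so levels of different genes can be compared. Relative to untreated 13, depth estimated from the smallest values was 1.01 in treated 17, 0.959 in treated 33/35, 0.810 in untreated 14 and 0.881 in untreated 15. Read totals were unknown. The libraries also differed in skeletal muscle transcripts. The 18 muscle markers summed to 13358 FPKM in treated 17 and 5894 FPKM in treated 33/35, against 159, 30641 and 145 FPKM in untreated 13, 14 and 15. Myh4, a fast myosin, was listed at 0 in the 3 libraries with the higher sums. The 8 brown adipocyte markers summed to 3452 and 4062 FPKM in treated 17 and treated 33/35, against 4740, 1324 and 5037 FPKM in untreated 13, 14 and 15, and Ucp1 reached 227 FPKM or more in every library. The 12 adipocyte markers summed to 6896 and 8153 FPKM in the treated libraries, against 8618, 4484 and 7828 FPKM in the untreated ones. The sums of the 5 endothelial markers lay between 127 and 164 FPKM, those of the 8 macrophage and mast cell markers between 27.5 and 57.2 FPKM, and those of the 4 hepatocyte markers between 0.727 and 8.88 FPKM. The most abundant markers were Ucp1 and Cox8b for brown adipocytes, Fabp4 and Pnpla2 for adipocytes, Tnnt3 and Atp2a1 for muscle, Cdh5 and Pecam1 for endothelium, Cd68 and Csf1r for macrophages and mast cells, and Alb and Serpina1a for hepatocytes. In whole tissue, fewer adipocytes and less RNA per adipocyte cannot be told apart.

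Untreated 14, the library with the most muscle transcripts, had the lowest value of 9 of the 11 genes. The share of all genes that were lowest in untreated 14 was not counted. This low level was not particular to the 11 genes. In untreated 14, 8 of 8 brown adipocyte and 10 of 12 adipocyte markers were also below the mean of untreated 13 and 15. Relative to the mean of untreated 13 and 15, untreated 14 held 19.4% for Agpat2 and 26.6% for Pnpla3, but 84.5% for Gpam and 109% for Lpin3. The promoter windows of these 4 genes are shown because they are the ends of that range among the genes with a window. RefSeq windows on GRCm38.p6, from 250 bases before to 50 bases after a start, were listed for 8 of the 11 genes, and Gpat4, Dgat1 and Dgat2 had no entry. Of the 2 windows listed for Gpam and for Lpin3 the upstream one was taken. They are written 5′ to 3′ in the direction of the gene, at chr2:26604368-26604667 (minus strand, Agpat2), chr15:84167566-84167865 (plus strand, Pnpla3), chr19:55127189-55127488 (minus strand, Gpam) and chr2:160880420-160880719 (plus strand, Lpin3). Capitals mark matches on either strand to the CCAAT box (letters CCAAT), the GC box (letters GGGCGG), the TATA box (letters TATAAA), the E-box (letters CACGTG) or a nuclear receptor half-site (letters AGGTCA), with overlapping matches kept.
Agpat2: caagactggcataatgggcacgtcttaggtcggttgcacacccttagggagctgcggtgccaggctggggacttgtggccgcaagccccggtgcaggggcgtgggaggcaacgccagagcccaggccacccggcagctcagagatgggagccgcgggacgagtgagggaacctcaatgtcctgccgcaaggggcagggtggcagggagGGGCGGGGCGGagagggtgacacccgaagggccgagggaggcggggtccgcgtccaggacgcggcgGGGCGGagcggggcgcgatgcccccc
Pnpla3: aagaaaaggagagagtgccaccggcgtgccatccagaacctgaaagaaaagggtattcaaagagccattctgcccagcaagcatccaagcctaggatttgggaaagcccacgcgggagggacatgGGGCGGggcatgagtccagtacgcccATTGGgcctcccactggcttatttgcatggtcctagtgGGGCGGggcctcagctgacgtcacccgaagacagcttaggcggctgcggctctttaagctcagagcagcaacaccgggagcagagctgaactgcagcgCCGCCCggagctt
Gpam: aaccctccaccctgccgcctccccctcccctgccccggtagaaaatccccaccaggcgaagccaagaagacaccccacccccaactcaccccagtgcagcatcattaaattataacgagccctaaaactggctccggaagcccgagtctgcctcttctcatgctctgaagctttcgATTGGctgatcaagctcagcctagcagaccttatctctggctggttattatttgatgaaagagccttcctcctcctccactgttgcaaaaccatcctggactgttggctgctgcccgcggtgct
Lpin3: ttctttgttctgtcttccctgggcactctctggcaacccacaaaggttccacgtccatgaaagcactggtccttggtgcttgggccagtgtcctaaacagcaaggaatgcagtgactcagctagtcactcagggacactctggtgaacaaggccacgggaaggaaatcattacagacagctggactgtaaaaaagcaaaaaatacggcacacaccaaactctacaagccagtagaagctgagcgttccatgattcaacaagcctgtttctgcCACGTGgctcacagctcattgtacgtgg
Agpat2 held 3 matches to the GC box, of which 2 overlapped, and Pnpla3 held 3 matches to it and 1 to the CCAAT box. Gpam held 1 CCAAT box and Lpin3 1 E-box. The GC box was present in 4 of the 8 windows of these genes and in 35.7% of all 32851 windows of this length. The CCAAT box was present in 2 of the 8 and in 37.4% of all windows, and the E-box in 2 of the 8 and in 7.15% of all windows. The half-site was present in 1 of the 8, that of Lpin1, and in 16.3% of all windows, and the TATA box in 0 of the 8 and in 13.6% of all windows. A match describes letters in this window and was not tested as a site.

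The 11 genes spanned a wide range of levels, and most neighbours in the order of levels kept it in every library. By mean FPKM over the 5 libraries the order was Dgat2 (671), Agpat2 (529), Agpat3 (201), Dgat1 (126), Lpin1 (114), Gpam (94.6), Pnpla3 (80.1), Gpat4 (63.8), Gpat3 (12.2), Lpin2 (5.87) and Lpin3 (3.37). Dgat2 lay above 99.2% and Agpat2 above 99.0% of the 13527 genes that averaged at least 1 FPKM, whereas Lpin3 lay above 23.0% of them. Of the 10 pairs of neighbours in this order, 6 kept it in 5 of 5 libraries. Dgat1 was above Lpin1, Lpin1 above Gpam and Lpin2 above Lpin3 in 4 of 5 libraries, and Gpam was above Pnpla3 in 3 of 5, so the order of these neighbours was not the same in every library. Lpin2 was below Lpin3 in untreated 14 alone. The differences between neighbours were not tested.

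**Figure D1:**
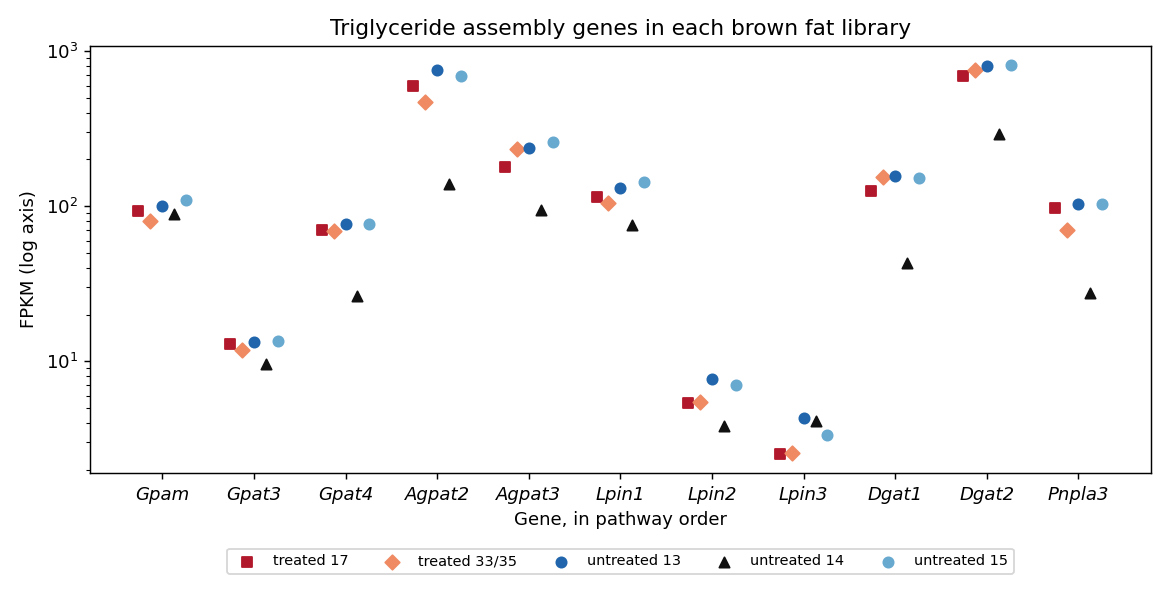
FPKM (log axis) of the 11 genes in pathway order, 1 point per library, with the 2 treated libraries left of the 3 untreated ones for each gene. Untreated 14 (triangles) is the lowest point for 9 genes, and Lpin3 has both treated points below the untreated ones. Groups were apart to the lower side in 3.18% and to the higher side in 5.50% of all genes tested.

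Among the first-step enzymes, Gpam was the least variable of the abundant genes. It encodes GPAT1, the acyltransferase of the mitochondrial outer membrane, and lies at chromosome 19, 55067268 to 55127238 (GRCm38, minus strand). Gpam measured 93.3 and 80.8 FPKM in treated 17 and treated 33/35, against 100.4, 88.8 and 109.6 FPKM in untreated 13, 14 and 15. The groups overlapped through untreated 14. Gpat4 (chromosome 8, 23171265 to 23208346, minus strand), which encodes an acyltransferase of the endoplasmic reticulum, measured 70.4 and 68.9 FPKM in the treated libraries, against 76.6, 26.4 and 76.4 FPKM in the untreated ones. Both treated values were above untreated 14 and below untreated 13 and 15. Gpat3 (chromosome 5, 100845713 to 100899102, plus strand), its close paralog, measured 12.9 and 11.9 FPKM in the treated libraries, against 13.2, 9.56 and 13.5 FPKM in the untreated ones. Gpat2, the remaining paralog of this step, was at 0.0687 FPKM or below in every library.

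The second step was dominated by Agpat2, whose loss causes generalized lipodystrophy in mice and humans. Agpat2 (chromosome 2, 26593057 to 26604417, minus strand) measured 595 and 471 FPKM in treated 17 and treated 33/35, against 753, 139 and 688 FPKM in untreated 13, 14 and 15. Its spread between the untreated libraries, an SD of 337 FPKM around a mean of 527 FPKM (n = 3), was the widest of the 11 genes in FPKM, and the treated mean was 533 ± 87.9 FPKM (SD, n = 2). Agpat3 (chromosome 10, 78269178 to 78352489, minus strand) encodes an acyltransferase of the endoplasmic reticulum and Golgi. It measured 178 and 235 FPKM in the treated libraries, against 237, 94.99 and 258 FPKM in the untreated ones, again with both treated values above untreated 14 and below the other untreated libraries.

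The lipins were represented almost wholly by Lpin1, the main phosphatidate phosphatase of fat and muscle. Lpin1 (chromosome 12, 16535669 to 16610966, minus strand) measured 115 and 105 FPKM in treated 17 and treated 33/35, against 131, 75.1 and 143 FPKM in untreated 13, 14 and 15. Lpin2 (chromosome 17, 71182560 to 71249817, plus strand) measured 5.37 and 5.45 FPKM in the treated libraries, against 7.72, 3.80 and 7.01 FPKM in the untreated ones. For both genes the treated values were above untreated 14 and below untreated 13 and 15. Lpin3 (chromosome 2, 160880670 to 160906002, plus strand), the third phosphatidate phosphatase of the family, measured 2.53 and 2.58 FPKM in the treated libraries, against 4.28, 4.14 and 3.32 FPKM in the untreated ones. It was the only one of the 11 genes whose groups did not overlap, with both treated values lower. Over all 13527 genes tested, groups did not overlap in 3.18% to the lower and in 5.50% to the higher side.

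The final step was carried mainly by Dgat2 transcripts. DGAT1 and DGAT2 make the same product but belong to unrelated protein families. Dgat2 (chromosome 7, 99153658 to 99182719, minus strand) measured 694 and 756 FPKM in treated 17 and treated 33/35, against 803, 294 and 809 FPKM in untreated 13, 14 and 15. Dgat1 (chromosome 15, 76502015 to 76511953, minus strand) measured 125 and 155 FPKM in the treated libraries, against 156, 43.2 and 151 FPKM in the untreated ones. Treated 33/35 was within the range of untreated 13 and 15 for Dgat1, and both genes were lowest in untreated 14. Pnpla3 (chromosome 15, 84167837 to 84187236, plus strand) measured 97.2 and 69.9 FPKM in the treated libraries, against 103, 27.4 and 103 FPKM in the untreated ones. Together the 11 genes summed to 1988 and 1961 FPKM in the treated libraries, against 2386, 806 and 2362 FPKM in untreated 13, 14 and 15.

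Several of these loci overlap other annotated genes, and whether the counting used strand is not given in the sources used here. Agpat2 shares 64 bases with Egfl7, an endothelial gene on the other strand with 106 and 112 FPKM in the treated libraries, against 86.2, 71.0 and 91.2 FPKM in the untreated ones. A gene model on the other strand also covers Agpat2 over 11361 bases and was at 0.471 FPKM or below. A microRNA gene within Pnpla3, which shares 108 bases with it on the same strand, was at 189 FPKM in treated 17 and listed at 0 in the other libraries. FPKM are scaled to length, and how many reads lie behind this value is unknown. The other overlapping genes were at 1.16 FPKM or below.

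Of the summed FPKM of each step, untreated 14 had the highest share of Gpam and the lowest shares of Gpat4 and Agpat2. Gpam made up 52.8% and 49.97% of the GPAT step in the treated libraries, against 52.8%, 71.2% and 54.9% in untreated 13, 14 and 15. Gpat4 made up 39.9% and 42.6% in the treated libraries, against 40.3%, 21.2% and 38.3% in the untreated ones. Untreated 14 was thus the library in which Gpam outweighed Gpat4 most. Agpat2 made up 69.9% and 60.4% of the AGPAT step in the treated libraries, against 70.3%, 47.6% and 66.8% in the untreated ones, counted over Agpat1 to Agpat5. Lpin1 made up 90.4% to 93.6% of the lipin step and Dgat2 83.0% to 87.2% of the DGAT step in the 5 libraries.

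**Figure D2:**
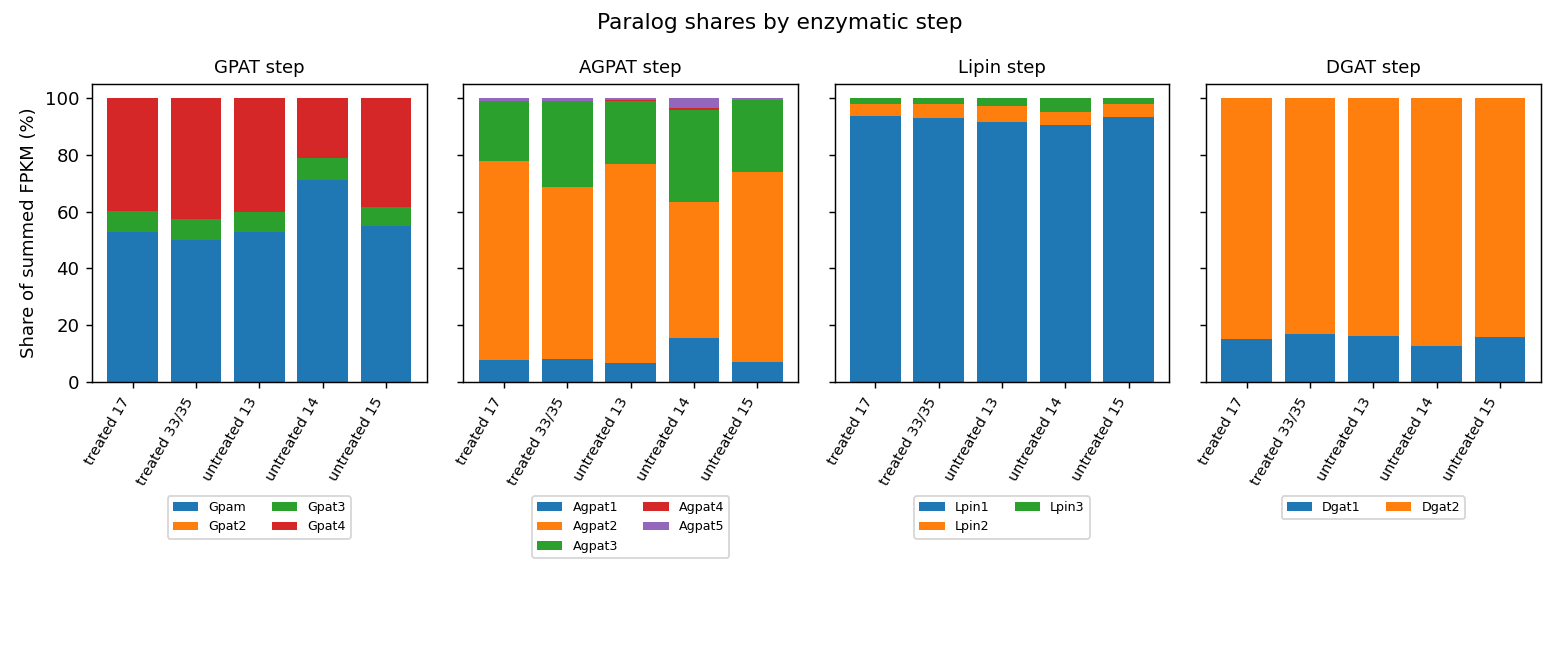
Share (%) of each gene in the summed FPKM of its enzymatic step, 1 bar per library, treated libraries left. Lpin1 and Dgat2 dominate their steps in all 5 libraries, and untreated 14 has the highest share of Gpam (71.2%) and the lowest share of Agpat2 (47.6%).

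Ratios between genes of the same step within a library do not depend on how the library was scaled. Dgat2 exceeded Dgat1 by a ratio of 5.58 and 4.87 in the treated libraries, against 5.16, 6.80 and 5.35 in the untreated ones. Lpin1 exceeded Lpin2 by a ratio of 21.4 and 19.2 in the treated libraries, against 17.0, 19.8 and 20.4 in the untreated ones. Both ratios overlapped between the groups. The ratio of Gpam to Gpat4 was 1.32 and 1.17 in the treated libraries, against 1.31, 3.36 and 1.43 in the untreated ones, and that of Gpat4 to Gpat3 was 5.46 and 5.80 against 5.79, 2.76 and 5.65. Untreated 14 stood apart in both, and the other 4 libraries lay close together. The ratio of Agpat2 to Agpat3 was 3.35 and 2.001 in the treated libraries, against 3.18, 1.47 and 2.67 in the untreated ones. Over the 5 ratios compared, the two-sided exact permutation test over libraries gave p from 0.4 to 0.8 (0.8 for each after Benjamini-Hochberg adjustment), and the smallest p this design allows is 0.2.

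In the comparison of the drug with the diet alone, 0 of the 11 genes passed the test. All 11 passed the filter on low values, a mean of at least 1 FPKM. On the log2(FPKM + 0.5) scale, 7 genes had higher and 4 had lower means in the treated group, with log2 fold changes from -0.52 (Lpin3) to 0.46 (Dgat1) and a median of 0.18, against 0.06 over all 13527 genes tested. By limma the adjusted p was 1 for each. Of all genes tested 6 passed, or 0.0444%, with 0.0296% higher and 0.0148% lower. At an unadjusted p under 0.05 the count was 1 of the 11 genes, Lpin3, and 125 of all genes. Fold changes on this scale understate those of low genes.

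Lpin3 had a log2 fold change of -0.52 (SE 0.18, adjusted p = 1 in limma), with means of 2.55 ± 0.0303 FPKM in treated (SD, n = 2) and 3.91 ± 0.515 FPKM in untreated libraries (SD, n = 3). Groups did not overlap in 1 of these 11 genes. Over all 13527 genes tested they did not overlap in 3.18% to the lower and in 5.50% to the higher side, and no direction was set in advance. Gpam had a log2 fold change of -0.19 (SE 0.18), Gpat3 0.05 (SE 0.21) and Gpat4 0.37 (SE 0.54). Agpat2 had 0.34 (SE 0.83) and Agpat3 0.18 (SE 0.51). Lpin1 had -0.03 (SE 0.33) and Lpin2 -0.12 (SE 0.33). Dgat1 had 0.46 (SE 0.65), Dgat2 0.33 (SE 0.53) and Pnpla3 0.31 (SE 0.68). Apart from Gpam and Lpin3 each of these estimates was smaller than its standard error.

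The direction of most of these genes turned on untreated 14. Without that library all 11 genes had lower means in the treated group, with log2 fold changes from -0.48 (Lpin3) to -0.11 (Gpat3). Their median was -0.27. Over the 13368 genes tested, 6451 had lower treated means and the median was 0.01. All 8 brown adipocyte markers had lower treated means too, with a median of -0.27, as did 8 of the 12 adipocyte markers. In 10 of the 11 genes both treated values were below untreated 13 and 15, and the exception was Dgat1. Between 2 treated and 2 untreated libraries, such a separation occurred to the lower side in 21.1% and to the higher side in 24.5% of the 13368 genes tested. None of the 11 passed in that fit (limma adjusted p from 0.305 for Lpin2 to 0.730 for Gpat3), where 1.18% of all genes did, 1.11% higher and 0.0673% lower. At an unadjusted p under 0.05 in limma the count was 4 of the 11 genes, against 1634 of the 13368 genes tested. Agpat2 had -0.44 (SE 0.15) and Lpin1 -0.31 (SE 0.10), and limma gave 0.356 as the adjusted p of each. In the same fit all 17 tested muscle markers rose, so the drug and the muscle transcripts are confounded in it and cannot be told apart.

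**Figure D3:**
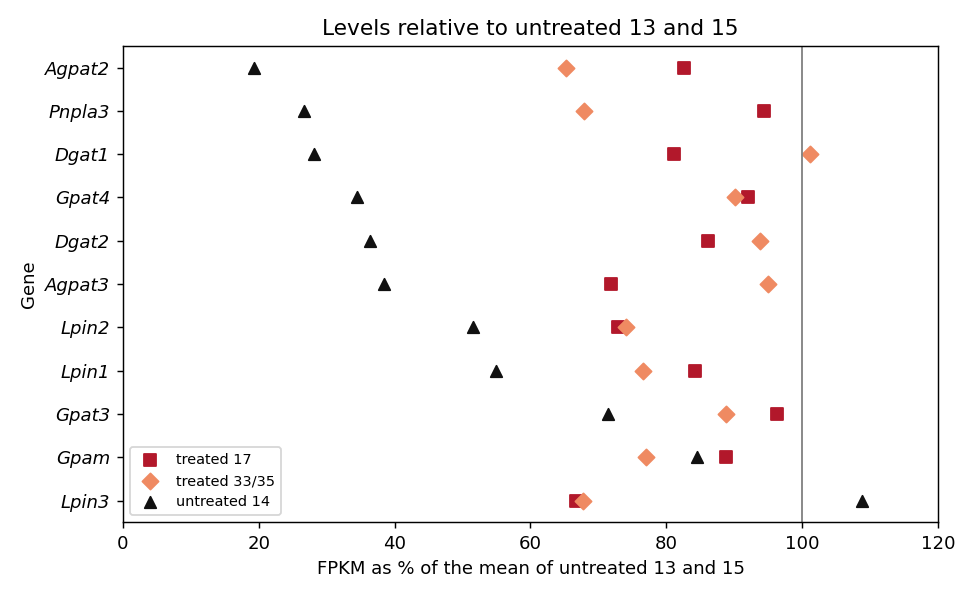
FPKM of each gene in treated 17, treated 33/35 and untreated 14 as a percentage of the mean of untreated 13 and 15 (line at 100%), genes ordered by their value in untreated 14. Treated 17 lies below 100% for all 11 genes and treated 33/35 for 10, while untreated 14 runs from 19.4% (Agpat2) to 109% (Lpin3).

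Read against untreated 13 and 15 alone, the genes held a median of 84.2% in treated 17 (range 66.7% to 96.3%), 76.9% in treated 33/35 (range 65.3% to 101%) and 38.4% in untreated 14 (range 19.4% to 109%). The muscle marker sums of the same libraries were 13358, 5894 and 30641 FPKM. For comparison, the adipocyte markers held a median of 61.4% in untreated 14 and the brown adipocyte markers 14.7%. Centring each library on the adipocyte markers left 5 of the 11 genes with higher and 6 with lower treated means, and a median log2 fold change of -0.09, where the median over all genes was -0.21.

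With the mean log2 level of the muscle markers as a covariate, 5 of the 11 genes rose in the treated group. These were Dgat1 with a log2 fold change of 1.29 (SE 0.09, adjusted p = 0.0109 in limma), Dgat2 with 0.99 (SE 0.08, adjusted p = 0.0123 in limma), Gpat4 with 1.05 (SE 0.12, adjusted p = 0.0158 in limma), Agpat3 with 0.82 (SE 0.11, adjusted p = 0.0211 in limma) and Agpat2 with 1.39 (SE 0.25, adjusted p = 0.0335 in limma). Pnpla3 had 1.13 (SE 0.27, adjusted p = 0.0551 in limma) and Lpin3 -0.58 (SE 0.18, adjusted p = 0.0966 in limma). In that fit 15.1% of all genes passed, of which 1492 rose and 549 fell. It estimates 3 coefficients from 5 libraries, and untreated 14 is both the highest in the covariate and the lowest in these 5 genes. The fit with all libraries and no covariate called none of them, and the fit without untreated 14 gave each of them a lower treated mean.

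**Figure D4:**
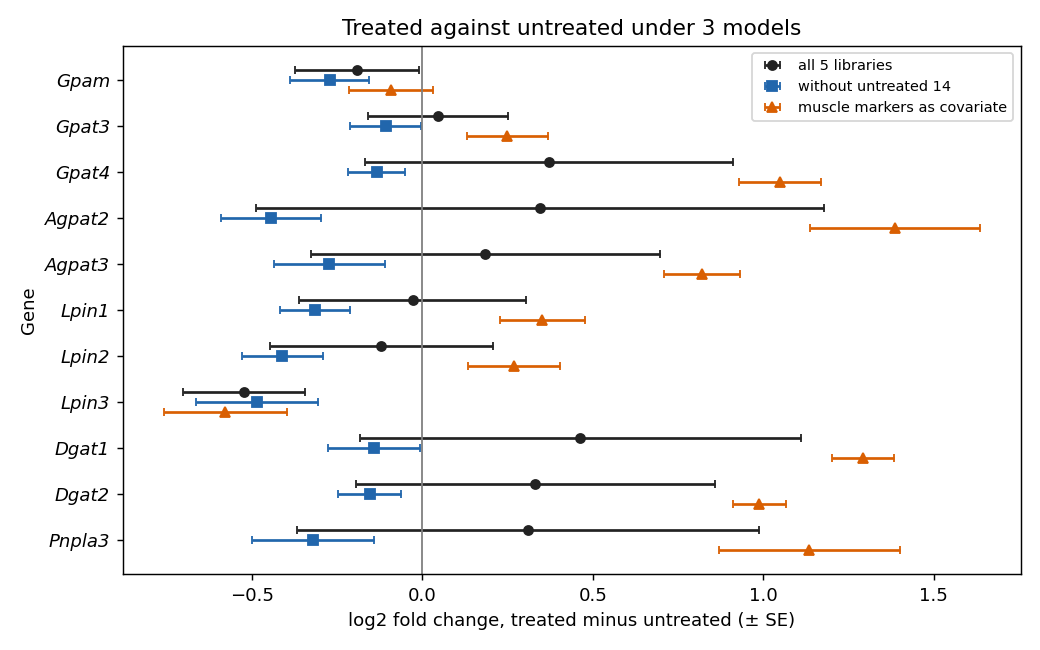
Log2 fold change (treated minus untreated, ± SE) of the 11 genes from all 5 libraries, without untreated 14, and with the muscle markers as a covariate. Dgat1 is at 0.46, -0.14 and 1.29 in these fits, and Lpin3 stays between -0.58 and -0.48.

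In the fit with all libraries 0 of the genes tested in 5 lists around the pathway passed in limma, and 1 of them, Acsl3, had an unadjusted p under 0.05. Among the other glycerolipid acyltransferases and phosphatases, 8 of 12 genes were tested, with a median log2 fold change of -0.04. Agpat5 had -0.14 (SE 0.18) and Agpat4 -0.20 (SE 0.34), both encoding further lysophosphatidate acyltransferases of the second step. In untreated 14, 4 genes of this list were below and 4 at or above the mean of untreated 13 and 15, where 10 of the 11 genes of triglyceride assembly were below it. Also below it were 6 of 6 tested genes of glycerol 3-phosphate supply and 4 of 8 acyl-CoA synthetases. So were 12 of 15 tested genes of the phospholipid branch and 8 of 12 cofactors and regulators. Among the markers, 8 of 8 for brown adipocytes, 10 of 12 for adipocytes and 5 of 5 for endothelium were below it. The counts were 1 of 8 for macrophages and mast cells and 0 of 17 tested for muscle. The share of all genes below it was not counted.

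Of the genes that supply glycerol 3-phosphate, 6 of 7 were tested and all 6 had higher treated means, with a median log2 fold change of 0.30, where 8704 of the 13527 genes tested had higher treated means. Without untreated 14 this turned to 1 higher and 5 lower, with a median of -0.33. Over the 13368 genes tested in that fit, 6917 had higher and 6451 lower treated means, with a median of 0.01. Gpd1l, a paralog of the cytosolic glycerol-3-phosphate dehydrogenase, measured 15.6 and 16.3 FPKM in the treated libraries, against 14.9, 13.0 and 14.5 FPKM in the untreated ones (log2 fold change 0.17, SE 0.14, adjusted p = 1 in limma). It was the 1 gene of this list whose groups did not overlap, against 5.50% of all genes on the higher and 3.18% on the lower side. Gpd2, the mitochondrial glycerol-3-phosphate dehydrogenase, had a log2 fold change of 0.66 (SE 1.14). Gk, the glycerol kinase, measured 48.3 and 44.3 FPKM in the treated libraries, against 102, 6.42 and 90.6 FPKM in the untreated ones. Without untreated 14 Gk fell, with a log2 fold change of -1.05 (SE 0.11, adjusted p = 0.0426 in limma), and with the muscle covariate it rose by 1.91 (SE 0.26, adjusted p = 0.0207 in limma).

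All 8 acyl-CoA synthetases, which activate fatty acids for esterification, were tested, with a median log2 fold change of 0.03. Acsl3, a synthetase found on lipid droplets, measured 14.9 and 11.2 FPKM in the treated libraries, against 19.2, 18.7 and 17.1 FPKM in the untreated ones. Its groups did not overlap, with lower treated values, as in 3.18% of all genes tested, and 5.50% were apart on the higher side. Its log2 fold change was -0.49 (SE 0.18, adjusted p = 1 in limma). Slc27a2, a very long-chain synthetase, had 0.93 (SE 1.23).

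The phospholipid branch, which draws on the same phosphatidate and diacylglycerol, had 15 of 16 genes tested and a median log2 fold change of 0.01. Selenoi, the ethanolamine phosphotransferase, had -1.10 (SE 1.10) and spread widely, with 14.6 and 100.3 FPKM in the treated libraries, against 84.9, 194 and 35.0 FPKM in the untreated ones. Ptpmt1, the phosphatidylglycerophosphate phosphatase, had 0.21 (SE 0.24).

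All 12 cofactors and regulators were tested, with a median log2 fold change of 0.08. Fitm1, a fat storage protein of muscle, had its highest value in untreated 14, as did 17 of the 18 muscle markers, with 49.7 and 18.005 FPKM in the treated libraries, against 0.307, 162 and 0.174 FPKM in the untreated ones. Without untreated 14 Fitm1 rose, with a log2 fold change of 5.37 (SE 0.51, adjusted p = 0.0315 in limma), whereas with the muscle covariate it fell by 0.77 (SE 0.17, adjusted p = 0.0494 in limma). Cebpa, an adipogenic transcription factor, had 0.44 (SE 0.53). Without untreated 14, Fitm1 was the 1 gene called of the 12 of its list and Gk the 1 called of the 6 of glycerol 3-phosphate supply. No gene of the other 3 lists was called by limma in that fit, where 1.18% of all genes were. At an unadjusted p under 0.05 in limma the counts were 3 of 6 genes of glycerol 3-phosphate supply and 3 of 12 cofactors. They were 1 of 8 other acyltransferases and phosphatases, 3 of 7 synthetases and 2 of 15 phospholipid genes. Over all genes that count was 1634 of 13368. The medians without untreated 14 were -0.10 for the other acyltransferases and phosphatases, -0.24 for the synthetases, -0.20 for the phospholipid branch and -0.07 for the cofactors, against 0.01 over all genes. With the muscle covariate, 5 of 6 genes of glycerol 3-phosphate supply, 2 of 8 synthetases, 5 of 15 phospholipid genes and 4 of 12 cofactors rose, and 1 of 8 other acyltransferases and phosphatases and 1 of 12 cofactors fell, where 15.1% of all genes passed in either direction.

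**Figure D5:**
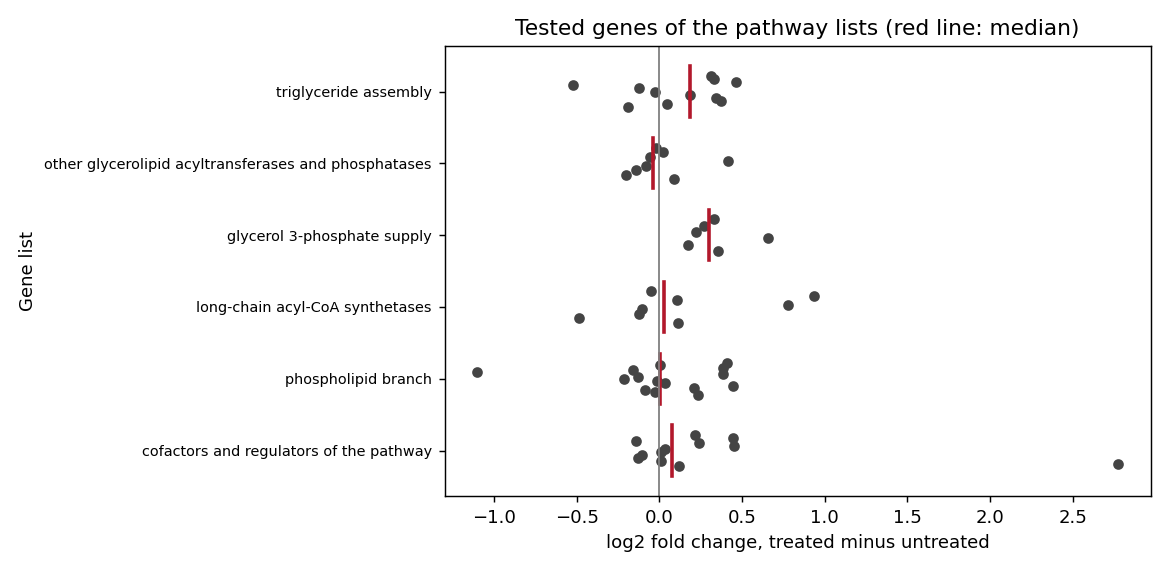
Log2 fold change (treated minus untreated, all 5 libraries) of each tested gene, 1 point per gene, with a red line at the median of each list. The medians run from -0.04 to 0.30, and Fitm1 is the point at 2.78.

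Each gene was set against 11041 other tested protein-coding genes by root mean square difference of centred log2 values over the 5 libraries. Left out were genes of chromosomes 18, Y and M and those with Gm, Rik or accession-type names. How near genes usually lie by this measure was not determined. Dgat2 was nearest to Phka2 (0.016) and Lipe (0.023), and Gpat4 to Gss (0.036) and Lipe (0.048). Lipe encodes hormone-sensitive lipase, and it measured 465 and 502 FPKM in the treated libraries, against 546, 189.9 and 537 FPKM in the untreated ones. Dgat1 was nearest to Ccdc3 (0.031) and Shpk (0.058), Agpat2 to Ddhd2 (0.040) and Snx10 (0.064), and Agpat3 to Pogk (0.022) and Josd1 (0.034). Gpam was nearest to Flt4 (0.014) and Armt1 (0.036), Gpat3 to N4bp2l2 and Knop1 (both 0.023), Lpin1 to Mrps15 (0.049) and Catsper2 (0.056), Lpin2 to Polr1d (0.037) and Mrps22 (0.039), Lpin3 to Pold1 (0.074) and Fkbp4 (0.075), and Pnpla3 to Cend1 (0.087) and Zfp961 (0.094). Among the 11 genes themselves, Gpat4 and Dgat2 were nearest to each other (0.057), as were Lpin1 and Lpin2 (0.105), Gpam and Gpat3 (0.149), and Agpat2 and Pnpla3 (0.183).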

How the data were processed

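RNA was isolated with Trizol for Illumina sequencing, per the labels' protocols. For each sample the authors deposited 1 table with FPKM values for 45320 Ensembl identifiers, per the file headers. The submitters' processing notes name CASAVA 1.7 and GRCm38, and the aligner and quantification program are not given in the sources used here. GENCODE M21 named 44395 identifiers. FPKM are not counts, and read totals are unknown. Relative depth came from the mode of ratios of values under 0.1 FPKM to untreated 13.

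Groups came from the labels. Genes averaging 1 FPKM or more were compared on log2(FPKM + 0.5) with limma 3.58.1 in R 4.3.3 (variance trend, two-sided, Benjamini-Hochberg adjusted p under 0.05 over 13527 genes). No label says that samples were separate animals, so p-values measure a spread that may be technical. Ratios and figures used Python 3.11.15, scipy 1.17.1 and matplotlib 3.10.9. The 14 alternatives covered pseudocount, filter, scaling, variance model, covariate and libraries left out.

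The members and lists were chosen with earlier results of these data known. All 11 genes were named, with the 2 genes of smallest p of each pathway list, the 2 most abundant markers of each marker list, Ucp1, Ckm and the 2 nearest patterns per gene. Myh4, Gk, Gpat2, Egfl7 and the adjoining gene models were named after their values were seen. Ckm measured 1262 and 531 FPKM in treated 17 and treated 33/35, against 2.25, 2733 and 1.46 FPKM in untreated 13, 14 and 15.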

Additional observations from a re-analysis of the deposited data

How the results depend on the processing

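Of 99 fold changes of the 11 genes under the 9 alternatives that kept all libraries, 89 kept their direction and stayed below the threshold. The muscle covariate called 5 genes, all higher, and gave Lpin1 0.35 and Lpin2 0.27. Gpat3 had -0.042 with quantile normalization and -0.22 centred on the adipocyte markers, where Agpat3 had -0.085. With 1 library left out in turn, 0 of the 11 genes passed. The log2 fold changes then ran from -0.11 to 0.13 for Gpat3, -0.13 to 0.63 for Gpat4, -0.44 to 0.77 for Agpat2, -0.27 to 0.44 for Agpat3 (-0.016 without treated 33/35), -0.31 to 0.15 for Lpin1 (0.040 without treated 33/35), -0.41 to 0.057 for Lpin2, -0.14 to 0.78 for Dgat1, -0.15 to 0.58 for Dgat2 and -0.32 to 0.63 for Pnpla3. Those of Gpam stayed between -0.29 and -0.09 and those of Lpin3 between -0.62 and -0.46. The log2 difference of the ratio of Gpat4 to Gpat3 ran from -0.023 (without untreated 14) to 0.51, and that of Agpat2 to Agpat3 from -0.21 to 0.53 (0.39 without untreated 13). Over all genes 6 passed, against 2 with log2(FPKM + 0.1), 0 without a filter on low values, 0 centred on the adipocyte markers, 2041 with the muscle covariate and 0 to 158 with 1 library left out, where 158 was without untreated 14. Of the 5 pathway lists 0 genes passed, against 18 with the muscle covariate and 0 to 2 with 1 library left out. Leaving out a treated library leaves 1, which is assumed to vary like the untreated ones. The cause of these changes was not tested. No paired analysis was possible because the groups share no replicate numbers. Read totals were unknown, so no counting error is given, and 2 treated libraries limit the precision of every comparison.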
